A study of Mus musculus with 4 samples.

Results

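These 86 genes of mouse E14 embryonic stem cells were lower under an shRNA against the endogenous retrovirus MERVL than under a random shRNA. They also shared a steady level between the random shRNA libraries. They were chosen by their measured values. Levels are in CPM, a gene's estimated count over the library total, times 1000000. A gene was taken if its mean was at least 5 CPM in the random shRNA libraries, if these differed at most 1.3-fold, and if the larger MERVL shRNA value was at least 1.6-fold below the smaller random shRNA value. Of 43496 Ensembl genes in the table, 11217 reached 5 CPM, 7217 of these were steady, and 91 passed all 3 cuts. The rule leaves out 6 genes by name, of which Cdkn1c, Thy1, Steap3, Eef1e1 and Trp53inp1 had passed, so 86 genes remained. The contrast between the shRNAs chose these genes, so their fold changes describe the choice and are no evidence of an effect.

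RNA-seq was done on 2 samples given a pSuper puro plasmid with the MERVL shRNA (genotype label MERVL knocked down; the element is also written MuERVL) and on 2 samples given a random shRNA (genotype label wild type). All were E14 cells, a pluripotent line with the strain label 12910la, kept on gelatin with serum and LIF. They received 1000 ng of plasmid and, from 24 h on, puromycin at 1 µg/ml for 4 days, which selects cells that took up the plasmid. Nothing in the labels ties the replicates to different cultures, and the p-values therefore reflect variation among these 4 samples that could be technical only. The libraries held 16067854 and 14570056 estimated counts with MERVL shRNA, and 15496921 and 11628887 with random shRNA. Summed over all its copies, MERVL RNA stood at 1152 and 555.1 CPM with MERVL shRNA, against 4716 and 1471 CPM with random shRNA, so the random shRNA libraries were far apart in the targeted element. All 8 stem cell markers examined were present, and the lowest of them, Utf1, had 338.1 and 351.5 CPM with MERVL shRNA and 402.01 and 374.7 CPM with random shRNA. In bulk RNA, fewer cells that express a gene and less of its RNA per cell cannot be told apart.

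MERVL is switched on at the 2-cell stage of the mouse embryo, and a minority of cultured stem cells passes through a similar state. The long terminal repeats of the element can serve as promoters of nearby genes. The steadiness cut keeps genes whose random shRNA values lay close together while MERVL itself did not. None of the 6 measured 2-cell markers, which include Zscan4c and Tcstv3, is among the 86 genes. The steadiness cut shut them out whatever their MERVL shRNA level, so their absence says nothing about the 2-cell state. With random shRNA Zscan4c stood at 443.3 and 127 CPM, and Tcstv3 at 13.8 and 4.04 CPM. The summed level of the 6 markers was 175.2 and 97.99 CPM with MERVL shRNA, against 851.6 and 225.4 CPM with random shRNA. On a list of 24 tested 2-cell genes 0 were steady. In edgeR 21 of these were lower and 0 higher at an unadjusted p under 0.05, with a median log2 fold change of -2.01 and 0 called after adjustment.

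Levels ran from 0.549 to 135.7 CPM in the MERVL shRNA libraries and from 4.90 to 296.4 CPM in the random shRNA libraries. The median over the 86 genes was 7.75 and 7.50 CPM in MERVL shRNA replicates 1 and 2, against 15.8 and 14.4 CPM in random shRNA replicates 1 and 2. The mean MERVL shRNA level was between 12.6% and 61.4% of the mean random shRNA level, with a median of 49.7%. In 22 genes both MERVL shRNA libraries were at or below 0.5 of the smaller random shRNA value. The rule set no limit on the gap between the MERVL shRNA libraries, and 77 of the 86 genes (89.5%) differed there by at most 1.3-fold, compared with 95.5% of the steady genes. The largest such gap was 1.48-fold. Random shRNA replicate 1 was the higher of its pair in 52 genes (60.5%, against 52.2% of the steady genes).

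**Figure D1:**
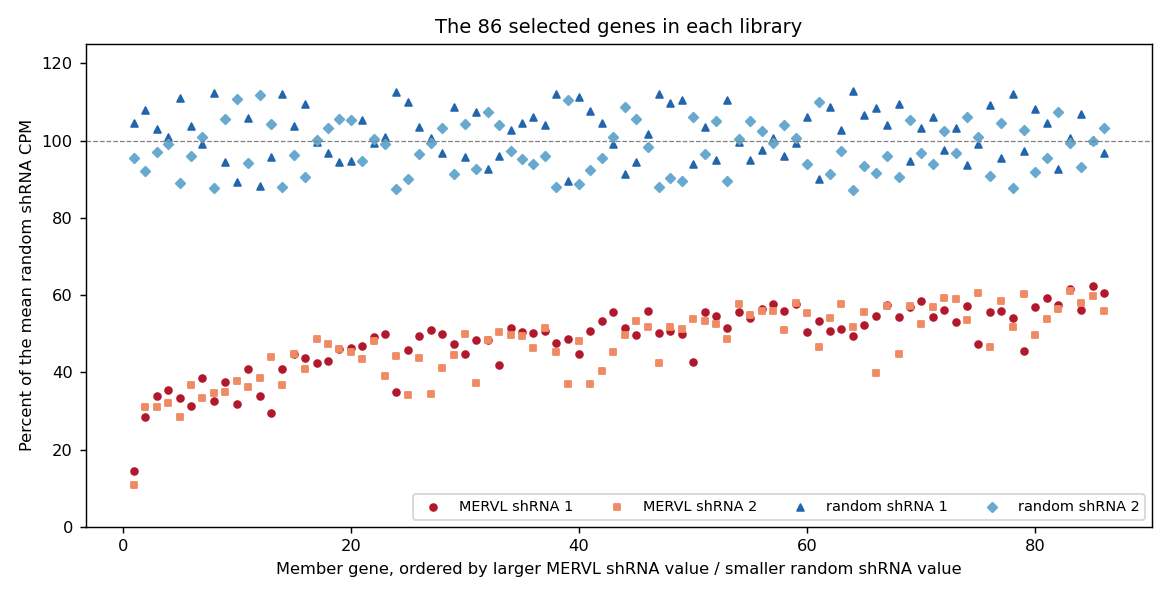
Each of the 86 genes in each library, as a percent of its mean CPM in the 2 random shRNA libraries; genes run from the strongest to the weakest difference, and the dashed line marks the random shRNA mean. For every gene the MERVL shRNA points lie below the random shRNA points, as the rule requires, and their mean is at most 61.4%.

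The edgeR quasi-likelihood test on all 16353 features, with Benjamini-Hochberg adjustment, called none of the 86 genes at an adjusted p under 0.05, where 0% of all features were called lower. Adjusted p-values of the 86 genes ran from 0.197 to 0.347. All 86 had an unadjusted p under 0.05, against a background of 8.92% of features lower at that level. DESeq2 called 37 of the 86, where 1.01% of the features with an adjusted p were called lower, and limma-voom called 0 against a background of 0%. Without the filter on low counts edgeR called 60 of the 86, where 3.76% of features were called lower. Since the contrast chose the genes, nothing is read from these counts. The median edgeR log2 fold change was -0.95, with standard errors between 0.13 and 0.40 for single genes. It was -0.01 over all features tested and 0.02 over the steady genes. Both MERVL shRNA libraries lay below both random shRNA libraries in 26.9% of all genes tested and in 32.9% of the steady genes, whereas the rule makes this true of every chosen gene.

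A mirrored rule kept the cuts on the random shRNA libraries and turned only the limit between groups round. It selected 20 genes that were higher with MERVL shRNA. That was 0.277% of the steady genes, against 1.26% for the 91 lower ones. Genes under 5 CPM or not steady with random shRNA could not enter in either direction, so the lower and higher counts are not a like-for-like comparison. The split also depends on scaling. With TMM-scaled libraries 62 genes were lower and 25 higher, and with DESeq2 size factors 59 were lower and 29 higher.

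The most lowered gene was Crlf2 at chromosome 5, positions 109554709 to 109558993 on the minus strand of GRCm38, a receptor subunit for the cytokine TSLP. It stood at 0.747 and 0.549 CPM in the MERVL shRNA libraries, against 5.36 and 4.90 CPM in the random shRNA libraries. These values rest on 12 and 8 counts with MERVL shRNA and on 83 and 57 counts with random shRNA. The log2 fold change was -2.91 ± 0.40 (SE), and Crlf2 lay at 12.6% of its random shRNA mean. No other gene of the set was below 29.7%.

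Other receptors and surface proteins were placed together after the values were seen, 8 genes including Crlf2, with a median of 45.6% of the random shRNA mean. Il3ra, the alpha chain of the interleukin-3 receptor, was at 4.05 and 3.09 CPM in the MERVL shRNA libraries, against 7.45 and 9.20 CPM in the random shRNA libraries. Il17ra, a receptor chain for interleukin-17, was at 3.98 and 5.01 CPM with MERVL shRNA and 8.74 and 9.89 CPM with random shRNA. Cd74, the invariant chain of MHC class II, was at 3.21 and 2.99 CPM with MERVL shRNA and 8.10 and 9.05 CPM with random shRNA. In all 3 every random shRNA value was under 10 CPM, where few counts carry each value, and exons of Il3ra overlap a gene on the opposite strand. Gprc5c, an orphan receptor with 7 membrane passes, had 2.80 and 3.29 CPM with MERVL shRNA and 9.29 and 8.60 CPM with random shRNA. The more abundant members were Cmtm6, which stabilises PD-L1 at the cell surface, at 54.6 and 55.5 CPM with MERVL shRNA and 96.02 and 106 CPM with random shRNA, and the semaphorin Sema4d at 21.2 and 21.1 CPM with MERVL shRNA and 38.3 and 35.4 CPM with random shRNA. Unc5b, a netrin receptor, lay close to the cut at 6.85 and 6.73 CPM with MERVL shRNA and 11.03 and 12.8 CPM with random shRNA. A wider list of growth factors, cytokines and their receptors does not hold these genes. Only steady genes could meet the rule. Of the 90 tested genes on this list 30 were steady and none met it, where 1.26% of all steady genes passed the 3 cuts. The median log2 fold change of the list was -0.10, and edgeR called 0. In edgeR 11 were lower and 8 higher at an unadjusted p under 0.05 (12.2% and 8.89%, against 8.92% and 4.69% of all features).

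Genes of germ cells and meiosis contributed Scml2, Tdrkh, Taf7l, Syce1, Fmr1nb, Nanos1 and Dnmt3l, 7 genes grouped after their values were seen. Germline genes are kept silent in many somatic cells by promoter DNA methylation, and embryonic stem cells express a number of them. Scml2, a Polycomb group protein of the male germline, was at 1.68 and 1.84 CPM in the MERVL shRNA libraries, against 6.41 and 5.46 CPM in the random shRNA libraries. Its log2 fold change was -1.69 ± 0.34 (SE). Tdrkh, a Tudor protein that binds PIWI proteins in the piRNA pathway, was at 5.35 and 4.56 CPM in the MERVL shRNA libraries, against 17.8 and 14.3 CPM in the random shRNA libraries, with -1.64 ± 0.24 (SE). Random shRNA replicate 1 was the higher of its pair in both genes. Exons of Tdrkh overlap Oaz3 on the opposite strand, and counts of both genes were partly not whole.

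Dnmt3l, the catalytically inactive partner of the de novo DNA methyltransferases, was the most abundant of them. It stood at 127 and 133 CPM in the MERVL shRNA libraries, against 217 and 237 CPM in the random shRNA libraries, a mean of 129.8 ± 4.46 CPM with MERVL shRNA and 227 ± 14.5 CPM with random shRNA (SD, n = 2 each). Here random shRNA replicate 2 was the higher of its pair. Exons of Dnmt3l overlap Aire on the opposite strand. Fmr1nb, a testis-expressed neighbour of Fmr1, was at 25.2 and 25.3 CPM with MERVL shRNA and 43.4 and 44.03 CPM with random shRNA. Syce1 of the synaptonemal complex had 22.6 and 18.9 CPM with MERVL shRNA and 44.4 and 36.9 CPM with random shRNA. Taf7l, a germ cell paralogue of the general transcription factor subunit Taf7, had 4.36 and 4.12 CPM with MERVL shRNA and 9.36 and 7.57 CPM with random shRNA. Nanos1, an RNA-binding translational repressor, was at 7.47 and 6.79 CPM with MERVL shRNA and 13.2 and 12.04 CPM with random shRNA. A germline and meiosis list, which holds Tdrkh, Taf7l and Syce1 of these, had 70 tested genes, of which 53 were on the negative side, with a median log2 fold change of -0.45. EdgeR called 0 of them in either direction, and 25 were lower and 0 higher at an unadjusted p under 0.05 (35.7% and 0%, against 8.92% and 4.69% of all features).

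Proteins of folding and translocation in the endoplasmic reticulum gave 5 genes, Tmx4, Erp29, Pdia5, Fkbp10 and Sec61b, again grouped with their values known. Tmx4, a membrane-bound thioredoxin-like protein, was at 5.48 and 4.94 CPM in the MERVL shRNA libraries, against 15.6 and 15.3 CPM in the random shRNA libraries, with a log2 fold change of -1.51 ± 0.21 (SE). The libraries of each group lay close together. Erp29, a lumenal chaperone, was at 67.2 and 65.997 CPM in the MERVL shRNA libraries, against 136 and 138 CPM in the random shRNA libraries, with -0.98 ± 0.13 (SE), and its exons overlap Naa25 and Tmem116 on the opposite strand. Sec61b, a subunit of the protein-conducting channel, was at 55.03 and 55.2 CPM with MERVL shRNA and 91.5 and 102 CPM with random shRNA. Pdia5, a disulfide isomerase, had 10.6 and 13.5 CPM with MERVL shRNA and 22.2 and 22.6 CPM with random shRNA, and Fkbp10, a prolyl isomerase for collagen, had 6.72 and 7.21 CPM with MERVL shRNA and 12.7 and 14.3 CPM with random shRNA. On a list of 56 folding and unfolded protein response genes, 38 were negative, the median was -0.14, edgeR called 0, and 5 were lower and 2 higher at an unadjusted p under 0.05 (8.93% and 3.57%, against 8.92% and 4.69% of all features). Of the 30 steady genes on that list, which lacks Tmx4, Erp29, Pdia5 and Fkbp10, Sec61b was the sole one to meet the rule.

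In the ubiquitin system the lowest was Rnf11, a RING protein that works with HECT-type ligases and is a part of the A20 complex. It stood at 12.6 and 10.8 CPM in the MERVL shRNA libraries, against 32.3 and 32.8 CPM in the random shRNA libraries, at chromosome 4, positions 109451098 to 109484728 on the minus strand. Its log2 fold change was -1.42 ± 0.16 (SE), with the smallest adjusted p of the 86 genes (0.197 in edgeR). Klhl13 and Klhl22, which bring substrates to cullin 3 ligases, were at 27.6 and 28.1 against 56.8 and 52.5 CPM and 45.2 and 46.7 against 80.9 and 81.5 CPM, MERVL shRNA values before random shRNA values. Fbxo2, which recognises glycoproteins, was at 25.95 and 25.02 CPM with MERVL shRNA and 45.9 and 54.7 CPM with random shRNA. Rnf128, a membrane-anchored ligase, had 2.99 and 3.36 CPM with MERVL shRNA and 6.001 and 5.68 CPM with random shRNA. Uba1y, the Y-linked copy of the ubiquitin-activating enzyme Uba1, had 3.03 and 3.84 CPM with MERVL shRNA and 9.79 and 7.60 CPM with random shRNA, and its counts were partly not whole. Of 60 tested genes on a list of ubiquitin ligases, 34 were negative with a median of -0.03, edgeR called 0, and 3 were lower and 0 higher at an unadjusted p under 0.05 (5% and 0%, against 8.92% and 4.69% of all features). Of the 48 steady genes on that list, which lacks Klhl13, Klhl22, Fbxo2 and Rnf128, Rnf11 alone met the rule. No gene met it on a list of 49 conjugating and deubiquitinating enzymes, of which 35 were steady. That list had a median of -0.09, 0 called by edgeR, and 3 lower and 0 higher at that level (6.12% and 0%, against 8.92% and 4.69% of all features). This group and those that follow were also put together with the values known.

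In the Hippo pathway, a kinase cascade that keeps the coactivators YAP and TAZ out of the nucleus, 3 genes met the rule. Wwtr1, which encodes TAZ, was at 30.7 and 29.7 CPM in the MERVL shRNA libraries, against 61.5 and 58.1 CPM in the random shRNA libraries, with a log2 fold change of -0.93 ± 0.14 (SE). Amot, a junction protein that binds YAP, was at 2.74 and 1.99 CPM with MERVL shRNA and 5.81 and 4.99 CPM with random shRNA. Ptpn14, a phosphatase that binds YAP, was at 8.65 and 9.20 CPM with MERVL shRNA and 17.6 and 15.4 CPM with random shRNA. All 3 lay near the middle of the set, at 43.8% to 53.9% of their random shRNA means. Cell adhesion was represented by Parva, Itgb1bp1, Phldb2 and Thbs3, at 46.2% to 53.3% of their random shRNA means. Itgb1bp1, a regulator of integrin beta 1, was the most abundant of these, at 11.4 and 11.1 CPM with MERVL shRNA and 23.6 and 21.5 CPM with random shRNA. A list of 138 tested adhesion, matrix and cytoskeleton genes lacks Parva, Itgb1bp1, Phldb2 and Thbs3. No gene on it met the rule, and 70 were steady. The median log2 fold change of the list was -0.07, with 0 called by edgeR and 14 lower and 10 higher at an unadjusted p under 0.05 (10.1% and 7.25%, against 8.92% and 4.69% of all features). No list was made for the Hippo pathway.

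Signalling through G proteins, small GTPases and kinases gave 8 genes with a median of 45.3% of the random shRNA mean. Rhod, a small GTPase of endosome movement, was at 3.30 and 3.50 CPM in the MERVL shRNA libraries, against 11.4 and 8.86 CPM in the random shRNA libraries. Replicate 1 was the higher random shRNA library. Arap3, which inactivates small GTPases of the Arf family, had 2.05 and 2.33 CPM with MERVL shRNA and 5.36 and 6.79 CPM with random shRNA. Adcy7, an adenylyl cyclase, had 4.17 and 3.23 CPM with MERVL shRNA and 9.29 and 7.997 CPM with random shRNA. Gnaz and Gng10, G protein subunits, were at 3.86 and 3.57 against 7.03 and 6.79 CPM and 4.48 and 4.43 against 7.73 and 8.14 CPM, MERVL shRNA first. Wnk3, a kinase that controls chloride transporters, was at 15.96 and 13.2 CPM with MERVL shRNA and 30.97 and 32.98 CPM with random shRNA. Of 57 tested small GTPases and regulators on a list, which lacks Arap3 and Rasd2, 31 were steady and Rhod alone met the rule. The median log2 fold change was -0.08, edgeR called 0, and 3 were lower and 3 higher at an unadjusted p under 0.05 (5.26% and 5.26%, against 8.92% and 4.69% of all features). Of 127 tested kinases and phosphatases on a list, which lacks Map3k15, Wnk3 and Ptpn14, 78 were steady and none met the rule. That list had a median of -0.04, 0 called, and 13 lower and 8 higher at that level (10.2% and 6.3%, against 8.92% and 4.69% of all features).

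The highest levels per length of exon belonged to Slc25a4, the mitochondrial ADP/ATP carrier, at chromosome 8, positions 46206797 to 46211284 on the minus strand. Its mean was 129.6 ± 8.68 CPM with MERVL shRNA and 287 ± 12.8 CPM with random shRNA (SD, n = 2 each), from 123 and 136 CPM in the MERVL shRNA libraries, against 278 and 296 CPM in the random shRNA libraries. Its log2 fold change was -1.09 ± 0.14 (SE). In random shRNA libraries Slc25a4 had 122.1 CPM per kilobase of exon, ahead of Sec61b and Dnmt3l at 75.94 and 75.93, and Amot had the lowest level per length at 0.642. Sec61b and Dnmt3l were not distinguishable in this order.

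Slc25a4 was grouped with 4 other mitochondrial or peroxisomal members, at 45.1% to 54.5% of their random shRNA means. Of 79 tested mitochondrial ribosomal proteins 27 had a negative and 52 a positive log2 fold change, with a median of 0.08 and Mrpl30 as the one member. Of 48 tested respiratory complex I genes 7 were negative and 41 positive, with a median of 0.19 and no member. The median over all features tested was -0.01. EdgeR called 0 in both families, where 0% of all features were called lower. At an unadjusted p under 0.05 in edgeR, 6.33% of the mitochondrial ribosomal proteins were lower and 5.06% higher. For complex I these shares were 0% and 12.5%, against 8.92% and 4.69% of all features. Steady genes, which alone could meet the rule, numbered 64 and 29 in the 2 families. Pdha1, a subunit of pyruvate dehydrogenase, was at 107 and 103 CPM in the MERVL shRNA libraries, against 199 and 186 CPM in the random shRNA libraries. Acadl, which oxidises long-chain fatty acids, had 8.28 and 8.10 CPM with MERVL shRNA and 16.9 and 18.8 CPM with random shRNA. Mrpl30 of the mitochondrial ribosome had 31.5 and 27.6 CPM with MERVL shRNA and 53.3 and 65.2 CPM with random shRNA, and Acbd5, which ties peroxisomes to the endoplasmic reticulum, had 16.4 and 13.4 CPM with MERVL shRNA and 29.3 and 29.8 CPM with random shRNA. Of the sugar-handling enzymes Gxylt1, St6gal1, Chst12, Gyg and Pgm2l1, the most abundant was Gxylt1, a xylosyltransferase for Notch, at 23.8 and 16.1 CPM with MERVL shRNA and 47.2 and 46.5 CPM with random shRNA. In membrane traffic, Serinc1 was at 41.8 and 41.7 CPM with MERVL shRNA and 96.9 and 89.8 CPM with random shRNA, the clathrin adaptor subunit Ap1s3 at 3.21 and 3.29 CPM with MERVL shRNA and 7.10 and 5.76 CPM with random shRNA and the autophagy protein Gabarapl1 at 22.3 and 24.7 CPM with MERVL shRNA and 43.4 and 40.7 CPM with random shRNA. A list of 119 tested trafficking genes had a median of -0.01, with 0 called by edgeR and 8 lower and 4 higher at an unadjusted p under 0.05 (6.72% and 3.36%, against 8.92% and 4.69% of all features).

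Transcription and chromatin regulators were few. Cebpa, a factor of fat, liver and myeloid cells, was at 6.16 and 5.77 CPM with MERVL shRNA and 14.1 and 11.9 CPM with random shRNA. Esx1, a homeobox gene of placenta and testis, had 5.04 and 3.81 CPM with MERVL shRNA and 9.87 and 9.03 CPM with random shRNA. Pcgf5, a Polycomb complex subunit, lay just inside the cut at 8.09 and 8.03 CPM with MERVL shRNA and 13.2 and 13.03 CPM with random shRNA. No gene on a list of 95 tested pluripotency and lineage factors, which lacks Cebpa, met the rule, and 45 of them were steady. The median there was 0.12, edgeR called 0, and 6 were lower and 14 higher at an unadjusted p under 0.05 (6.32% and 14.7%, against 8.92% and 4.69% of all features). Esx1 was the one member, and the only steady gene, on a list of 8 tested trophectoderm genes. That list had a median of -0.89, 0 called by edgeR, and 4 lower and 0 higher at that level (50% and 0%, against 8.92% and 4.69% of all features). Dnmt3l and Pcgf5 were the 2 members on a list of 122 tested chromatin genes, of which 78 were steady. The median of that list was 0.03, with 0 called by edgeR and 11 lower and 11 higher at an unadjusted p under 0.05 (9.02% and 9.02%, against 8.92% and 4.69% of all features).

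Among genes of cell death and growth, Pmaip1, which encodes the p53 target NOXA, lay just inside the cut. It was at 85.6 and 78.9 CPM in the MERVL shRNA libraries, against 137 and 146 CPM in the random shRNA libraries. Phlda2, an imprinted restrictor of placental growth, had 15.7 and 16.7 CPM with MERVL shRNA and 33.6 and 28.3 CPM with random shRNA. Amd1, which makes a precursor for polyamines, was at 130.3 and 135 CPM with MERVL shRNA and 248 and 216 CPM with random shRNA, and its counts were partly not whole. The p53 target list of 39 tested genes had a median of -0.10, with 0 called by edgeR and 7 lower and 1 higher at an unadjusted p under 0.05 (17.9% and 2.56%, against 8.92% and 4.69% of all features). The imprinted list, which holds Phlda2, had 45 tested genes with a median of -0.07, 0 called, and 8 lower and 0 higher at that level (17.8% and 0%, against 8.92% and 4.69% of all features). None of 50 tested genes on a cell death and survival list, which lacks Pmaip1, met the rule, and 26 of them were steady. The median of that list was 0.01, with 0 called, and 5 lower and 3 higher at that level (10% and 6%, against 8.92% and 4.69% of all features).

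The remaining 23 genes were placed in no group. Btbd10, an activator of the kinase AKT, was at 19.6 and 17.6 CPM in the MERVL shRNA libraries, against 53.8 and 42.3 CPM in the random shRNA libraries. Kif1a, a kinesin that moves synaptic vesicle precursors, was at 1.80 and 2.68 CPM with MERVL shRNA and 5.84 and 6.36 CPM with random shRNA. Tsnax, which with translin forms a nuclease of small RNAs, was the most abundant of them at 36.3 and 39.8 CPM with MERVL shRNA and 76.2 and 67.5 CPM with random shRNA. Abhd17c, which removes palmitate from proteins, had 27.9 and 29.2 CPM with MERVL shRNA and 54.5 and 48.3 CPM with random shRNA, and the centriole protein Cep120 had 25.7 and 24.6 CPM with MERVL shRNA and 53.4 and 41.8 CPM with random shRNA. The X-linked 2610002M06Rik had 2.68 and 3.16 CPM with MERVL shRNA and 7.49 and 9.29 CPM with random shRNA. The others were Rwdd4a, 4933427D06Rik, Lhpp, Abhd3, Cpn1, Tmem159, Zc3hav1l, Aif1l, Fam102b, Ptprv, Eva1b, Acy3 and Tuft1, besides the X-linked Gm4779, 8030474K03Rik, Sh3bgrl and Dmrtc1c2 described with that chromosome. In the groups above, Rasd2, Zfp334 and Phf13 were also members. The lists and families examined hold 24 of the 86 genes.

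**Figure D2:**
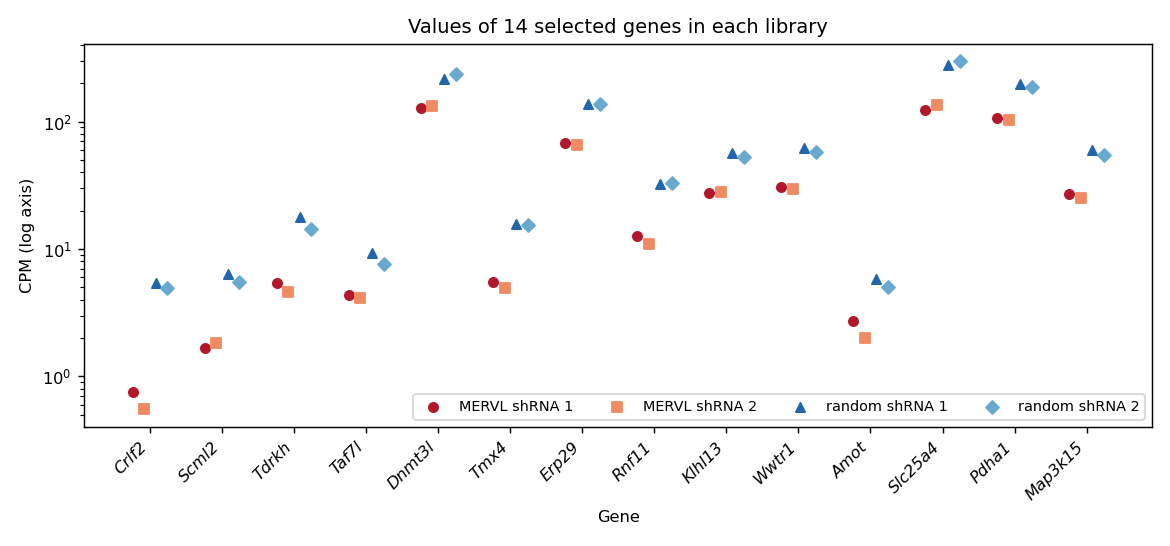
CPM on a log axis of 14 of the genes in each library, with MERVL shRNA replicates 1 and 2 left of random shRNA replicates 1 and 2. Crlf2 has the widest distance between groups, and the values run up to 296.4 CPM for Slc25a4 with random shRNA.

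The position of the genes was not used to choose them. The X chromosome held 15 of the 86 genes (17.4%), whereas it held 251 of the 7217 steady genes (3.48%). The same comparison the other way round gives 5.98% of X-linked and 1.01% of autosomal steady genes in the set. None of the 20 genes that were higher by the mirrored rule was X-linked. At the 3.48% share of the steady genes, 20 genes could hold few or none, so this 0 makes no contrast with the 17.4%. Both shares depend on the setting. On the authors' scores the X chromosome held 9.06% of the genes chosen as lower (3.31% of the steady genes) and 2 of 61 higher ones, and with a limit of 0.75 between groups 9.33% (3.48%) and 3 of 118. Without random shRNA replicate 1 it held 5.96% (3.33%) and 5 of 99, and without random shRNA replicate 2 it held 5.74% (3.34%) and 8 of 335. The steady genes of the X chromosome had a median log2 fold change of -0.01, against 0.02 for autosomal ones, and 37.1% against 32.8% had both MERVL shRNA values below both random shRNA values. These are descriptions without a test, since genes are not replicates.

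The X-linked share differed between levels. It was 7 of 30 chosen genes at 5 to 10 CPM with random shRNA (23.3%, against 4.92% of the steady genes there) and 1 of 21 at 10 to 20 CPM (4.76% against 4.15%). At 20 to 50 CPM it was 4 of 18 (22.2% against 3.38%), and above that 3 of 17 (17.6% against 2.91%). The 15 genes are Scml2, Taf7l, Esx1, Fmr1nb, Dmrtc1c2, Amot, Klhl13, Rnf128, Wnk3, Map3k15, Pdha1, Sh3bgrl, 2610002M06Rik, Gm4779 and 8030474K03Rik. They lay at 29.7% to 57.8% of the random shRNA mean, with a median of 46.6%, against 49.9% for the other 71 genes. Scml2, Taf7l, Fmr1nb and Esx1 among them are known from germ cells or placenta. Sh3bgrl, a small thioredoxin-fold protein, was at 10.5 and 9.33 CPM with MERVL shRNA and 22.1 and 20.6 CPM with random shRNA. Dmrtc1c2, of the DMRT-like C1 family, whose copies resemble each other, was at 3.14 and 2.95 CPM with MERVL shRNA and 5.16 and 5.85 CPM with random shRNA. Shares of autosomes also differed from those of the steady genes. Chromosome 7 held 10.5% of the chosen genes against 7.01%, chromosome 18 held 5.81% against 2.47%, chromosome 19 held 5.81% against 3.20% and chromosome 3 held 6.98% against 4.31%. Chromosome 11 held 2.33% against 7.73%, chromosome 9 held 1.16% against 5.68% and chromosome 17 held 0% against 4.92%.

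The set held 2 pairs of members closer than 50 kb, both on the X chromosome. How often steady genes lie this close was not computed. Map3k15, a kinase of the ASK family, and Pdha1 lie tail to tail from position 159988433 to 160138413 of GRCm38 and share exon sequence on opposite strands. Map3k15 was at 26.8 and 24.9 CPM in the MERVL shRNA libraries, against 60.3 and 54.3 CPM in the random shRNA libraries. No source names whether strand was used in counting, so reads of the shared part cannot be told apart. The next gene upstream, Sh3kbp1, is outside the set, since it met neither ratio limit. It was at 5.10 and 3.98 CPM with MERVL shRNA and 10.3 and 6.39 CPM with random shRNA.

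The second pair was Gm4779 and 8030474K03Rik, which point away from each other with 232 bp between them, from position 101790053 to 101798642. Gm4779 was at 5.85 and 5.35 CPM in the MERVL shRNA libraries, against 17.8 and 16.8 CPM in the random shRNA libraries. 8030474K03Rik was at 8.90 and 7.89 CPM in the MERVL shRNA libraries, against 23.005 and 20.5 CPM in the random shRNA libraries. Both ranked among the 11 most lowered genes. Of the expressed genes around them, Taf1 was at 98.6 and 86.7 CPM with MERVL shRNA and 84.3 and 86.6 CPM with random shRNA, and Ogt at 271.3 and 209.9 CPM with MERVL shRNA and 176.6 and 270.0 CPM with random shRNA. Neither of these neighbours separated the groups in the direction of the pair.

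Gene structure was not used by the rule either. Of the 86 genes 84 were protein coding (97.7%, against 94.3% of the steady genes). The median length of merged exons was 3577 bp against 4520 bp, the median genomic span 24206 bp against 24169 bp, and the median GC content of the longest transcript 49.5% against 49.3%. Level, unlike structure, was used by the rule. The 86 genes were less abundant, with a median random shRNA mean of 15.3 CPM against 39.7 CPM. Random shRNA means of 5 to 10 CPM were found in 34.9% of them and in 11.0% of the steady genes. The set took 3.78% of the steady genes in that range and 0.561% of those above 50 CPM. For the mirrored rule the shares were 1.13% and 0.0330%, so in both directions the cuts took a larger share at low levels. Counts that were not whole in at least 1 library, as when a read is divided between loci, occurred in 46 of the 86 genes (53.5%) and in 77.4% of the steady genes. Exons of 20 genes (23.3%, against 32.8%) overlapped a gene on the opposite strand. The genes compared in these shares were not matched for level.

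**Figure D3:**
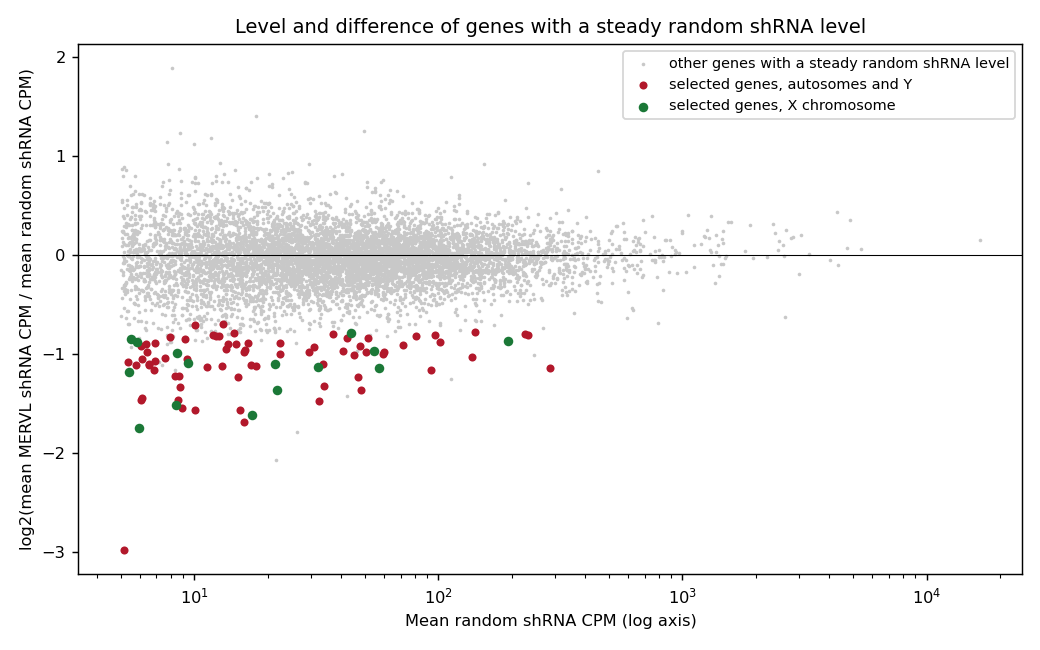
Log2 ratio of mean MERVL shRNA to mean random shRNA CPM against mean random shRNA CPM on a log axis, for the genes with a steady random shRNA level and a MERVL shRNA mean above 0. The chosen genes, with X-linked ones in green, lie below the bulk at 5 to about 300 CPM; grey points level with them are the 5 genes left out by name or genes that missed the limit between groups in a library.

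RefSeq promoters on GRCm38.p6, from 250 bases before to 50 after the start, matched 66 of the 86 genes and 5615 of the steady genes, with the first listed start used for each. The box CCAAT, on either strand, was in 16 of the 66 promoters (24.2%), in 40.5% of the steady genes' promoters and in 37.9% of all RefSeq promoters. The GC box GGGCGG was in 60.6%, 68.5% and 35.9%, and TATAAA in 7.58%, 5.79% and 14.2%, in the same order. The letters TGACGTCA occurred in 0 of the 66 promoters, in 3.72% of those of steady genes and in 1.88% of all. CANNTG was in 66.7%, 60.5% and 72.1%, and CACGTG, which CANNTG includes, in 12.1%, 11.0% and 7.24%. TGANTCA was in 7.58%, 4.10% and 7.93%, TTTCCGG in 3.03%, 7.76% and 3.62%, and GGGGCGGGG, which includes GGGCGG, in 18.2%, 23.5% and 11.6%. The median number of CpG dinucleotides was 21.5 in the set, 22 in steady genes and 7 in all promoters. A match describes letters and shows no binding.

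Promoters are shown for the 3 most lowered genes and the 3 most abundant per exon length that have an entry and a name other than a placeholder. Each is printed 5′ to 3′ with CCAAT and the GC box in capitals on either strand, and none of the 6 holds TATAAA. The RefSeq start of Scml2 lay 45557 bp inside the gene as annotated by GENCODE, those of Dnmt3l and Slc25a4 340 and 222 bp inside, and those of Tmx4, Sec61b and Crlf2 24, 3 and 0 bp inside.
Crlf2 (chr5:109558944-109559243, minus strand): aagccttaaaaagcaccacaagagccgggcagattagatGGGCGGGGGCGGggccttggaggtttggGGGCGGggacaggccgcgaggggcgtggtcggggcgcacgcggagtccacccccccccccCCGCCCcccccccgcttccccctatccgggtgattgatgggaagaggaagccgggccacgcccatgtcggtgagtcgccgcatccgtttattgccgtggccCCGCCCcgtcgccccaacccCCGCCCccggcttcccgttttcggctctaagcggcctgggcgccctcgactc
Scml2 (chrX:161162500-161162799, plus strand): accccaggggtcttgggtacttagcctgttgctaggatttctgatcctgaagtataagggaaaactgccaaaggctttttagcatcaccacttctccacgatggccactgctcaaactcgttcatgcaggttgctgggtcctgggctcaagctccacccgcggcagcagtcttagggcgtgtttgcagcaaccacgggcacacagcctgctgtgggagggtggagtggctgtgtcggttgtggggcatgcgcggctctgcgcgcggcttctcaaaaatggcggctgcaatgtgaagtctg
Tmx4 (chr2:134644072-134644371, minus strand): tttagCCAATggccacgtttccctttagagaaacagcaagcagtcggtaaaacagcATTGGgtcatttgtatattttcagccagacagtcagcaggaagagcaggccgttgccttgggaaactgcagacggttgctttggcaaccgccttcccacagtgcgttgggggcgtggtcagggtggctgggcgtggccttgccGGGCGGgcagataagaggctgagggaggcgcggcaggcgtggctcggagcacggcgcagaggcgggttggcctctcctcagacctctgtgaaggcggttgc
Slc25a4 (chr8:46211013-46211312, minus strand): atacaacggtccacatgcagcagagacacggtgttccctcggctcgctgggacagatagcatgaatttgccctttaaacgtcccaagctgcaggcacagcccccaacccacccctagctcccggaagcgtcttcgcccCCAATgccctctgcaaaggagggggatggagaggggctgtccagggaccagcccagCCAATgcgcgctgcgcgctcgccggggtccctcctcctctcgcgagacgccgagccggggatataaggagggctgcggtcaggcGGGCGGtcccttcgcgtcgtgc
Sec61b (chr4:47474411-47474710, plus strand): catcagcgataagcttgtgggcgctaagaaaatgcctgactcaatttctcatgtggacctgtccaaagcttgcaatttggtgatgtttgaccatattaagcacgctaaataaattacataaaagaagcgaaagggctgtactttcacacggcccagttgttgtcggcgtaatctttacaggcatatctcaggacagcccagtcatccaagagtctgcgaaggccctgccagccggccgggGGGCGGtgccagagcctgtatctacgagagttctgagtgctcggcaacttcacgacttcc
Dnmt3l (chr10:78042037-78042336, plus strand): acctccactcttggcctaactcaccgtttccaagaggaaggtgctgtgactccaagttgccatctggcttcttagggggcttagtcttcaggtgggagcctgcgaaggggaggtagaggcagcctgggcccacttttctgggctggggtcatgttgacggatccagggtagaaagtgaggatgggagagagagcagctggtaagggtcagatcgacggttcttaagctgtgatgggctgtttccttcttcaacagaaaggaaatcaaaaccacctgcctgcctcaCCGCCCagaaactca
Crlf2 has 6 copies of GGGCGG and 31 CpG dinucleotides, while Scml2 has none of the 3 boxes and 13 CpG dinucleotides. Tmx4 and Slc25a4 each hold 2 CCAAT boxes and 1 GGGCGG. Dnmt3l, with 1 GGGCGG, has 6 CpG dinucleotides.

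Values close to the cuts are given as a description. Pmaip1, Tuft1, Amd1, Pcgf5 and Unc5b were just inside the limit between groups, their larger MERVL shRNA value being 62.04% to 62.47% of the smaller random shRNA value. Tent5b, Cidea, Zhx1, Gmds and Kcnh7 were just outside it, at 62.64% to 62.99%. On the random shRNA ratio Plekha3, Cep120, Rhod, Uba1y and Pgm2l1 were just inside (1.27 to 1.29). Plxnd1, Sord, Zfp568, Mfng and Cs, the last encoding citrate synthase, were just outside (1.31 to 1.34). Crlf2, Fam102b, Amot, Dmrtc1c2 and Phldb2 were nearest above the 5 CPM minimum (5.13 to 5.76 CPM), and Bche, Snora24, Phyhip, 1700013H16Rik and Nfam1 nearest below it (4.75 to 4.97 CPM).

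In the authors' normalized table, whose values are whole-number scores, all 86 genes were present. All were lower in both MERVL shRNA than in both random shRNA libraries, and 73 (84.9%) kept the 1.6-fold distance. It holds the same 4 libraries, so this is the same measurement after another scaling. Of the marker sums of 4 other cell types given here, only that of feeder cells or fibroblasts separated the groups. The 12 feeder or fibroblast markers summed to 181.7 and 186.4 CPM with MERVL shRNA, against 269.7 and 256.6 CPM with random shRNA. Most of that was Vim, and Col3a1, Postn, Lum and Dcn were at 0 in all libraries. Thy1, left out of the set by name, was also lower with MERVL shRNA, whereas Pdgfrb did not separate the groups. Twist1 went the other way, at 4.61 and 4.67 CPM with MERVL shRNA and 3.10 and 2.32 CPM with random shRNA. The 7 trophectoderm markers summed to 42.2 and 44.2 CPM with MERVL shRNA, against 41.8 and 70.8 CPM with random shRNA, with Cdx2, Elf5 and Gata3 under 1 CPM throughout. Primitive endoderm markers summed to 117.4 and 103.4 CPM with MERVL shRNA and 91.7 and 103.9 CPM with random shRNA. Neural markers summed to 103.3 and 116.1 CPM with MERVL shRNA and 165.7 and 98.1 CPM with random shRNA. That sum was mostly Tubb3 and hides single markers that went opposite ways. Sox1 was higher, at 12.8 and 12.97 CPM with MERVL shRNA and 5.29 and 3.35 CPM with random shRNA. Nes was lower, at 9.52 and 8.79 CPM with MERVL shRNA and 22.8 and 15.01 CPM with random shRNA. Pax6, Tubb3 and Map2 did not separate the groups. The part of such cells in the levels of the 86 genes was not tested.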

How the data were processed

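Per the submitters' processing notes, reads were processed with Trim Galore and HISAT2 on mm10; no version, counting program or strand setting is named there. The authors deposited estimated counts for 45773 features, 2277 of them MERVL copies, and a table of normalized scores made by a method that is not given. In each library 19.1% to 20.8% of the features had an estimated count that was not whole, and these were rounded for count tests. Symbols matched 42329 of 43496 Ensembl genes, and 42415 matched GENCODE M21 (GRCm38).

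Genes and copies were tested together with edgeR 4.0.16 (R 4.3.3; TMM, filterByExpr, quasi-likelihood F test, no replicate term, 2-sided, Benjamini-Hochberg over 16353 features, threshold 0.05). Standard errors came from the F statistic. DESeq2 1.42.0, limma-voom (limma 3.58.1), other scalings and filters, a replicate block and leaving out each library were alternatives. P-values measure the spread between libraries, which may be technical. CPM in the text are over column totals.

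Members, gene lists and tests were chosen with earlier results of these data known. Named genes were the 15 most lowered, the 10 most abundant per exon length, up to 4 per list, those near the cuts and neighbouring members; other groupings were made after values were seen. MERVL copy names carry no coordinates, so distances to MERVL were not computed.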

Additional observations from a re-analysis of the deposited data

How the results depend on the processing

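The median log2 fold change of the 86 genes lay between -1.01 and -0.89 under every alternative, and each of the 86 genes kept a negative log2 fold change in every fit. The rule had set both MERVL shRNA values well below both random shRNA values. Both outcomes thus follow from the choice of genes, and neither shows that a difference withstands the processing. Each fit covered all features tested in that setting and not the 86 genes alone. The number of genes chosen depended on the rule. It was 86 as reported, 265 on the authors' deposited scores, 215 with a minimum of 1 CPM and 56 with 10 CPM. A stricter limit on the random shRNA ratio gave 56, and a MERVL shRNA ratio of at most 0.5 or 0.75 gave 22 or 268. With a library left out it was between 116 and 592: 168 without MERVL shRNA replicate 1, 116 without replicate 2, and 470 and 592 without random shRNA replicates 1 and 2, where no steadiness cut was possible. With TMM or DESeq2 size factors it was 62 or 59, of which 61 and 58 were among the 86. The X-linked share was 22.6% and 23.7% there, 9.06% on the scores, 9.33% with a ratio of 0.75, and 5.96% and 5.74% without random shRNA replicates 1 and 2.

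Of the 86 genes, edgeR called 0 as reported, 51 with a replicate block (3.84% of features lower) and 60 when low counts were kept, and DESeq2 called 37. With a library left out edgeR called 0 to 85: 81 without random shRNA replicate 1, where 1229 of 16890 features were called lower and 1144 higher, 85 without random shRNA replicate 2, where 2985 of 17177 were called lower and 2557 higher, and 0 without either MERVL shRNA library. Across 11184 features the deviations of same-numbered libraries were hardly correlated (r = 0.03). MERVL RNA and the summed 2-cell markers were nevertheless higher in replicate 1 than in replicate 2 of both groups. The correlation is taken over all these features, so it does not settle whether the numbers pair libraries. Depth limits the lowest genes, whose smallest counts were 12 and 8 in the MERVL shRNA libraries and 80 and 57 in the random shRNA libraries.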

Other observations

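Below the 5 CPM minimum, 1318 genes with a random shRNA mean of 1 to under 5 CPM were steady, and 129 of them met the other cuts. Of these, 17 were X-linked (13.2%, against 5.99% of the steady genes at that level), and none of the 21 genes that were higher by the mirrored rule was. They were looked at after the X-linked share of the 86 genes was known, and they come from the same libraries. They were Gm10439, Xlr5b, 1700013H16Rik, Pak3, Gm7061, Otud6a, Gm6880, 4930550L24Rik, Xlr3c, Arhgef6, Apln, Prrg1, Tktl1, Cnksr2, Nxf2, Rhox10 and Slc38a5. Values of 4 of them, chosen after they were seen, follow. Xlr5b stood at 0.658 and 0.683 CPM with MERVL shRNA, against 1.86 and 1.87 CPM with random shRNA. Xlr3c was at 0.840 and 1.53 CPM with MERVL shRNA and 3.15 and 3.42 CPM with random shRNA. Rhox10, a homeobox gene of the reproductive cluster, had 1.49 and 1.51 CPM with MERVL shRNA and 2.52 and 3.01 CPM with random shRNA. Nxf2, an mRNA export factor of germ cells, had 0.934 and 0.755 CPM with MERVL shRNA and 1.61 and 1.72 CPM with random shRNA. Genes of the Xlr family resemble each other closely, which makes the level of any one of them uncertain. Counts at these levels are few, and no test was made.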
